A study of Mus musculus with 10 samples.

Results

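The genes described here control how glucose enters a cell and how the cell answers to its energy supply. They are 9 of the 25579 genes in the expression tables, listed by name for their known place downstream of Pax5: the glucose transporter genes *Slc2a1*, *Slc2a3* and *Slc2a6*, the insulin receptor gene *Insr*, the restraining genes *Txnip*, *Cnr2* and *Nr3c1*, and the kinase genes *Stk11* and *Prkaa1*. The genes were chosen with earlier results of these data known, so that counts over them beside all genes describe and do not test. All 9 were measured above 1 TPM (a read count divided by transcript length and scaled to the same total in each library) in all 8 libraries, so that none entered the 13436 tested genes through a single genotype.

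Pax5 is the transcription factor that commits lymphoid progenitors to the B cell lineage, which it does by activating B cell genes and by silencing genes of other lineages. In B cells it is also known as a gatekeeper of metabolism, with its partner Ikzf1. In that role it holds back glucose uptake through the insulin receptor and glucose transporters, and it favours the expression of *Txnip*, *Nr3c1* and *Cnr2*, whose products limit uptake or energy supply. The kinase Lkb1 (encoded by *Stk11*) and the AMPK catalytic subunit α1 (encoded by *Prkaa1*) sense and counter a low energy state.

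RNA was measured in sorted bone marrow cells of C57BL/6 mice in 4 genotypes with 2 libraries each: *Pax5*+/+, *Pax5*+/- and *Pax5*R31Q/- cells labelled as pro-B cells, and cells of *Pax5*(fl/fl) Vav-Cre mice, called *Pax5*-/- below, which the labels name progenitors and the study's text names pro-B cells. The R31Q allele carries an arginine-to-glutamine change in the DNA-binding paired domain and stands opposite a null allele, as the wild-type allele does in *Pax5*+/-. Vav-Cre acts throughout the haematopoietic system and not in B cells alone. Pax5 binding was measured by ChIP-seq in pro-B cells after a short culture, with 1 library labelled *Rag2*(-/-) that carries wild-type Pax5 and 1 library labelled *Pax5*(R31Q/-) whose description reads *Rag2*(R31Q/-). The labels do not say how many mice gave each library or how old they were, so that the p-values measure the spread between libraries, which may be technical.

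The number of reads in each library, worked back from the spacing of its TPM values, ranged from 21625407 (*Pax5*-/- library 1) to 34488454 per library. Pax5 itself was at 417.8 and 443.7 TPM in *Pax5*+/+, 272.1 and 286.6 in *Pax5*+/-, 306.2 and 293.0 in *Pax5*R31Q/-, and 1242 and 1409 in *Pax5*-/-. The value covers the whole gene and does not show which exons were read, so it checks neither the deleted nor the R31Q allele. Over 8 B-lineage markers the summed TPM was 14400 and 17400 in *Pax5*+/+ and 5270 and 4830 in *Pax5*-/-, and all 8 were lower there. The *Pax5*-/- libraries also held more plasmacytoid dendritic cell markers (801 and 1370 against 447 and 406 TPM in *Pax5*+/+, 5 of 6 higher), fewer cycling markers (413 and 427 against 1960 and 1200 TPM, 8 of 8 lower) and unequal granulocyte and macrophage markers (2140 and 359 against 619 and 400 TPM, 2 of 8 higher). T and NK cell markers summed to 73.6 and 40.2 TPM in *Pax5*-/- and to 26.7 and 24.7 in *Pax5*+/+ (2 higher and 1 lower of 5 tested, with *Cd3d*, *Cd3e* and *Cd3g* below 1 TPM in all libraries), and erythroid markers to 37.0 and 13.8 against 132 and 78.9 TPM (2 of 4 tested lower, with *Hba-a2* and *Hbb-bs* at 0 in all libraries and *Hba-a1* at 0 in *Pax5*-/-). The part of these cell differences in the *Pax5*-/- results below was not tested, and fewer cells of a type cannot be told apart from less RNA per cell in such samples.

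The test was limma on log2(TPM + 1), fitted over all 8 libraries, and adjusted p-values are Benjamini-Hochberg values over the 13436 genes. Values after ± are SDs over 2 libraries for TPM and SEs of the model for log2 differences. *Slc2a6* and *Slc2a3* were the members that rose in *Pax5*-/- cells, *Txnip* and *Cnr2* those that fell. In *Pax5*R31Q/- cells *Slc2a6* was higher and *Cnr2* lower than in *Pax5*+/+. *Slc2a1* stayed between 21.02 and 27.18 TPM in all 8 libraries. An exact permutation test of 2 against 2 libraries cannot go below p = 0.333, so single genes were judged by the model over all genes. For the same reason, libraries of 2 genotypes that do not overlap say little alone. The share of all genes without overlap was not counted.

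**Figure D1:**
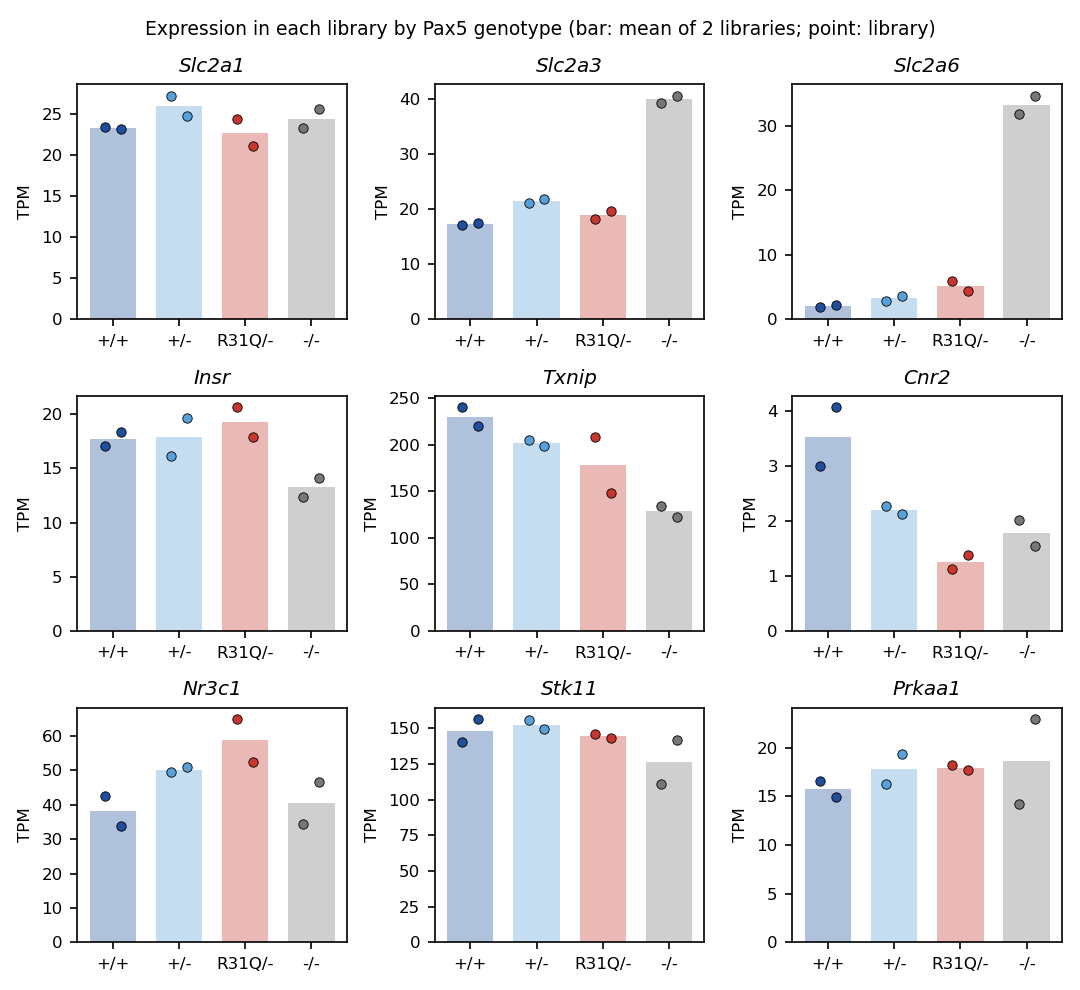
Expression of the 9 genes in TPM, 1 panel per gene, with a bar for the mean of the 2 libraries of each Pax5 genotype and a point for each library. *Slc2a6* stands at 31.88 and 34.66 TPM in *Pax5*-/- and between 1.850 and 6.016 TPM in the 6 other libraries, whereas the bars of *Slc2a1* are nearly level.

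*Slc2a6* encodes GLUT6, a hexose transporter of intracellular membranes, and had the largest difference of the 9 genes. It was at 1.850 and 2.301 TPM in *Pax5*+/+, 2.862 and 3.661 in *Pax5*+/-, 6.016 and 4.436 in *Pax5*R31Q/-, and 31.88 and 34.66 in *Pax5*-/-. The means of the 4 genotypes rose in the order *Pax5*+/+, *Pax5*+/-, *Pax5*R31Q/-, *Pax5*-/-. The *Pax5*-/- mean of 33.27 ± 1.964 TPM (SD) was 16.0 times the *Pax5*+/+ mean of 2.075 ± 0.3183 TPM, a difference of 3.48 ± 0.20 on the log2(TPM + 1) scale (SE, adjusted p = 2.34e-05), and it was 6.37 times the *Pax5*R31Q/- mean of 5.226 ± 1.117 TPM (adjusted p = 0.000148). In *Pax5*R31Q/- the mean was 2.52 times that of *Pax5*+/+, a difference of 1.01 ± 0.20 (adjusted p = 0.0324). The neighbours *Pax5*+/- and *Pax5*+/+ (0.47 ± 0.20, 95% confidence interval from 0.01 to 0.93, adjusted p = 0.809) and *Pax5*R31Q/- and *Pax5*+/- (0.54 ± 0.20, from 0.08 to 1.0, adjusted p = 0.437) did not pass the adjusted threshold. Both *Pax5*-/- differences passed in all 17 alternative settings, whereas the *Pax5*R31Q/- difference passed in 8 of 17 and was lost when any *Pax5*+/+, *Pax5*+/- or *Pax5*R31Q/- library was left out (adjusted p between 0.0713 and 0.25).

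The counts behind *Slc2a6* were low in *Pax5*+/+, with 55 and 61 reads, and reached 683 and 1046 reads in *Pax5*-/-. The summed granulocyte and macrophage markers were 2140 and 359 TPM in *Pax5*-/- and between 400 and 1530 TPM in the other genotypes. Within that list *Ctsg* was at 71.72 and 42.40 TPM in *Pax5*-/- and between 2.825 and 7.359 TPM in the other 6 libraries (3.68 ± 0.30 against *Pax5*+/+, adjusted p = 0.000105), and *Csf1r* was at 10.39 and 5.041 TPM against 2.429 and 2.287 in *Pax5*+/+ (1.31 ± 0.30, adjusted p = 0.0117). The other 6 of the 8 markers (*Elane*, *Mpo*, *S100a8*, *S100a9*, *Lyz2* and *Itgam*) did not pass, and each was lower in *Pax5*-/- library 2 than in any other library, *Elane* at 6.692 TPM against 92.65 in *Pax5*-/- library 1 and 11.56 and 16.02 in *Pax5*+/+. The summed B-lineage, plasmacytoid dendritic, T and NK, erythroid and cycling markers each separated both *Pax5*-/- libraries from all others, as *Slc2a6* did. The part of these markers in the difference was not tested.

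*Slc2a6* lies on chromosome 2 (chr2:27021363-27028000, minus strand, GRCm38). A Pax5 peak covered its transcription start site in wild-type cells (chr2:27027936-27028253, 318 bp) and in R31Q cells (chr2:27027888-27028272, 385 bp). The promoter sequence under these peaks is shown because this gene had the largest change and kept its start-site peak with the R31Q protein. It is RefSeq sequence of GRCm38 (chr2:27027949-27028248, minus strand), 250 bases before the start in lower case and 50 bases after it in capitals.
Slc2a6 promoter: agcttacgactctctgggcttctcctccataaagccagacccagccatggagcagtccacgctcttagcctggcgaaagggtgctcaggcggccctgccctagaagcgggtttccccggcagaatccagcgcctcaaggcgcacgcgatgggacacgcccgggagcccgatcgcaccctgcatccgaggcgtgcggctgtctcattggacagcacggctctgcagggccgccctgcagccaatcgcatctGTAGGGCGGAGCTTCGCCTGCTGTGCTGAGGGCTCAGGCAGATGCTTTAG

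*Slc2a3* encodes GLUT3, a high-affinity glucose transporter of the plasma membrane. It was at 17.06 and 17.46 TPM in *Pax5*+/+, 21.17 and 21.79 in *Pax5*+/-, 18.24 and 19.70 in *Pax5*R31Q/-, and 39.23 and 40.61 in *Pax5*-/-. The *Pax5*-/- libraries lay above all others, and the other 6 libraries lay between 17.06 and 21.79 TPM. Its mean in *Pax5*-/-, 39.92 ± 0.9759 TPM, was 2.31 times the *Pax5*+/+ mean of 17.26 ± 0.2802 TPM (1.16 ± 0.12 on the log2(TPM + 1) scale, adjusted p = 0.000329) and 2.10 times the *Pax5*R31Q/- mean of 18.97 ± 1.033 TPM (adjusted p = 0.000736), and both differences passed in all 17 alternatives. *Pax5*+/- was 1.24 times *Pax5*+/+ (0.30 ± 0.12, adjusted p = 0.761), and the difference between *Pax5*R31Q/- and *Pax5*+/+ was 0.13 with a 95% confidence interval from -0.15 to 0.41 (adjusted p = 0.584). A predicted gene, *Gm4482*, overlaps *Slc2a3* on the same strand, and reads in the overlap could count for either.

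*Slc2a1* encodes GLUT1, the basal glucose transporter of most cells. It was at 23.36 and 23.18 TPM in *Pax5*+/+, 27.18 and 24.70 in *Pax5*+/-, 24.39 and 21.02 in *Pax5*R31Q/-, and 23.30 and 25.51 in *Pax5*-/-. The libraries of *Pax5*+/+ lay within the range of *Pax5*R31Q/- and overlapped that of *Pax5*-/-, with no order among the genotypes. The difference between *Pax5*-/- and *Pax5*+/+ was 0.06 with a 95% confidence interval from -0.25 to 0.38 (adjusted p = 0.733), and that between *Pax5*R31Q/- and *Pax5*+/+ was -0.04, from -0.35 to 0.28 (adjusted p = 0.902). The libraries held between 601 and 949 reads of the gene. *Slc2a1* overlaps the predicted genes Gm52706 and Gm12867 on the opposite strand, and if the counting, whose strand setting is not given in the sources used here, ignored strand, reads of these could not be told apart from it. Of the other glucose transporter genes, 9 were listed and 2, *Slc2a8* and *Slc2a9*, reached 1 TPM in any library. With limma neither passed in any comparison, although both had an unadjusted p under 0.05 between *Pax5*R31Q/- and *Pax5*+/+.

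*Insr* encodes the insulin receptor, the tyrosine kinase that couples insulin to glucose uptake and growth. It was at 17.08 and 18.31 TPM in *Pax5*+/+, 16.17 and 19.63 in *Pax5*+/-, 20.64 and 17.89 in *Pax5*R31Q/-, and 12.38 and 14.14 in *Pax5*-/-. Both *Pax5*-/- libraries were below all others, and the ranges of the other 3 genotypes overlapped. In *Pax5*-/- the mean of 13.26 ± 1.249 TPM was 0.750 times the *Pax5*+/+ mean of 17.69 ± 0.8670 TPM, which did not pass (-0.39 ± 0.16, adjusted p = 0.0910). *Pax5*R31Q/- exceeded *Pax5*-/- by 0.51 ± 0.16 (1.45 times, adjusted p = 0.0426), and this call was lost in 11 of 17 alternatives. Among them were both other scalings of the libraries (adjusted p = 0.0603 and 0.0772), the fit without *Pax5*-/- library 1 (adjusted p = 0.119) and the fits without any 1 of the *Pax5*+/+, *Pax5*+/- or *Pax5*R31Q/- libraries (adjusted p between 0.0564 and 0.23).

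*Insr* lies on chromosome 8 (chr8:3150922-3279649, minus strand, GRCm38). Of its 6 Pax5 peaks in wild-type cells, 3 intronic peaks were not met by a peak in R31Q cells, and 1 of these held GCGTGAC, known as one end of the Pax5 recognition sequence. The centre of that peak is shown for this reason. The study's text does not spell out the letters GCGTGAC. They were in the centres of 1589 of all wild-type peaks, and 1147 of these peaks were met by an R31Q peak. The window shown also holds a long run of cctt and cttt repeats. The sequence is that of the minus strand of GRCm38 (chr8:3219270-3219569), and the capitals mark GTCACGC, the reverse complement of the motif. The peak itself spans chr8:3219247-3219593, 60024 bp from the nearest *Insr* start site.
Insr intronic peak: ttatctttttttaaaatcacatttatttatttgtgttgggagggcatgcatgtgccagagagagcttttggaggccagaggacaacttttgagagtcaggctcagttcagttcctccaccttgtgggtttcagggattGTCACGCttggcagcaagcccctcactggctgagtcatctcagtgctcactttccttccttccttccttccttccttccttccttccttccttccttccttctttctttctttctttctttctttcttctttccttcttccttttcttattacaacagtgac

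**Figure D2:**
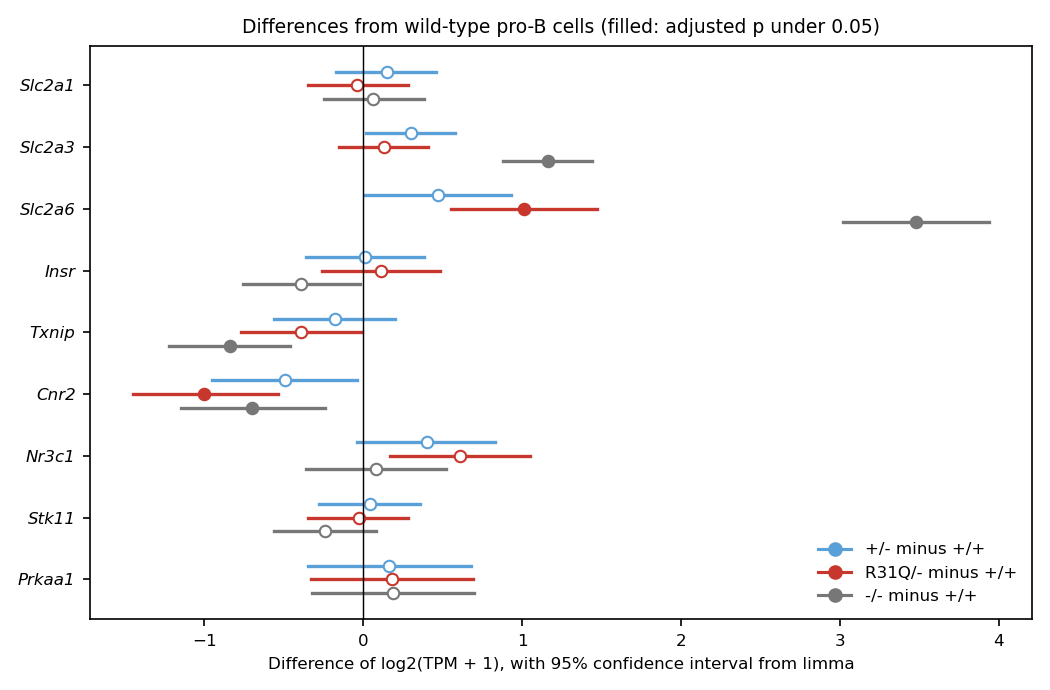
Difference of mean log2(TPM + 1) from *Pax5*+/+ for *Pax5*+/-, *Pax5*R31Q/- and *Pax5*-/- cells, with the 95% confidence interval from limma as a line and filled points for adjusted p under 0.05. Filled points are those of *Slc2a6* (1.01 in *Pax5*R31Q/- and 3.48 in *Pax5*-/-), *Slc2a3* (1.16), *Txnip* (-0.84) and *Cnr2* (-1.0 and -0.70).

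*Txnip* encodes the thioredoxin-interacting protein, an α-arrestin that removes glucose transporters from the cell surface. It was the most abundant of the 9 genes in *Pax5*+/+, at 240.4 and 219.7 TPM, with 205.6 and 199.1 in *Pax5*+/-, 208.1 and 147.8 in *Pax5*R31Q/-, and 134.5 and 122.4 in *Pax5*-/-. The means followed the order *Pax5*+/+, *Pax5*+/-, *Pax5*R31Q/-, *Pax5*-/-, but the *Pax5*R31Q/- libraries spanned the whole *Pax5*+/- range. *Txnip* fell in *Pax5*-/- to 0.558 times the *Pax5*+/+ mean (128.5 ± 8.550 against 230.1 ± 14.63 TPM, -0.84 ± 0.16, adjusted p = 0.00631), and this passed in all 17 alternatives. The difference between *Pax5*R31Q/- and *Pax5*+/+ was -0.39 ± 0.16 (adjusted p = 0.258). It was -0.63 without *Pax5*R31Q/- library 1 and -0.14 without library 2, and passed in neither fit. The difference between *Pax5*R31Q/- and *Pax5*-/- was 0.45 ± 0.16 (adjusted p = 0.0679), with 0.20 without *Pax5*R31Q/- library 1 (adjusted p = 0.36) and 0.69 without library 2, where it passed (adjusted p = 0.0259). *Txnip* lies within *Gm15441* of the opposite strand, and whether the read counting used strand is not given in the sources used here.

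The *Txnip* promoter is shown because it carried a Pax5 peak in both ChIP-seq libraries (448 bp in wild-type and 643 bp in R31Q cells) while the transcript fell in *Pax5*-/- cells. It is RefSeq sequence of GRCm38 (chr3:96557707-96558006, plus strand), with the 50 bases after the start in capitals.
Txnip promoter: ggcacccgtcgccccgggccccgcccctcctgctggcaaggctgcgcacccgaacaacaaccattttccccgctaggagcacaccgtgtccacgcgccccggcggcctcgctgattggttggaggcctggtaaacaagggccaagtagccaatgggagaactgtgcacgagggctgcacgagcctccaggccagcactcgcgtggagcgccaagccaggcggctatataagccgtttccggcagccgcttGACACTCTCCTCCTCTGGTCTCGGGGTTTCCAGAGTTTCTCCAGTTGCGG

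*Cnr2* encodes the cannabinoid receptor CB2, a receptor of B cells that responds to endocannabinoids. It was at 2.999 and 4.068 TPM in *Pax5*+/+, 2.276 and 2.126 in *Pax5*+/-, 1.126 and 1.389 in *Pax5*R31Q/-, and 2.023 and 1.550 in *Pax5*-/-. The lowest mean was that of *Pax5*R31Q/-, not of *Pax5*-/-, but the difference between these did not pass. *Cnr2* fell in *Pax5*R31Q/- to 0.356 times the *Pax5*+/+ mean (1.257 ± 0.1860 against 3.533 ± 0.7557 TPM, -1.0 ± 0.20, adjusted p = 0.0329). In *Pax5*-/- it fell to 0.506 times that mean (1.786 ± 0.3342 TPM, -0.70 ± 0.20, adjusted p = 0.0276). The neighbouring levels of *Pax5*R31Q/- and *Pax5*-/- (-0.30 ± 0.20, adjusted p = 0.257) did not pass, nor did *Pax5*+/- and *Pax5*+/+ (-0.49 ± 0.20, 95% confidence interval from -0.95 to -0.04, adjusted p = 0.753). A test of *Pax5*-/- against *Pax5*+/- was not made. *Cnr2* rested on 68 to 219 reads per library. The *Pax5*R31Q/- and the *Pax5*-/- call each passed in 9 of 16 alternatives. Both were lost without *Pax5*+/+ library 2 (adjusted p = 0.171 and 0.118). The *Pax5*R31Q/- call was also lost without any 1 of the *Pax5*+/- or *Pax5*R31Q/- libraries (adjusted p between 0.0812 and 0.235), and the *Pax5*-/- call without any 1 of these or without *Pax5*-/- library 2 (adjusted p between 0.0520 and 0.0573). With only the 2 genotypes of each comparison fitted, the adjusted p was 0.057 for the *Pax5*R31Q/- and 0.127 for the *Pax5*-/- difference.

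*Nr3c1* encodes the glucocorticoid receptor, through which glucocorticoids halt growth and kill immature lymphocytes. It was at 42.42 and 33.87 TPM in *Pax5*+/+, 49.41 and 50.99 in *Pax5*+/-, 65.02 and 52.47 in *Pax5*R31Q/-, and 34.51 and 46.71 in *Pax5*-/-. The *Pax5*R31Q/- and *Pax5*+/- libraries were above all libraries of *Pax5*+/+ and *Pax5*-/-, whose ranges overlapped. The *Pax5*R31Q/- mean was 1.54 times that of *Pax5*+/+ (58.75 ± 8.880 against 38.14 ± 6.047 TPM), which did not pass (0.61 ± 0.19, adjusted p = 0.135). The difference between *Pax5*-/- and *Pax5*+/+ was 0.08 with a 95% confidence interval from -0.36 to 0.52 (adjusted p = 0.759), and that between *Pax5*R31Q/- and *Pax5*-/- was 0.53 ± 0.19 (adjusted p = 0.0626), which passed without *Pax5*-/- library 2 (adjusted p = 0.0208).

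*Stk11* encodes the kinase Lkb1, which activates AMPK. It was at 140.2 and 156.8 TPM in *Pax5*+/+, 155.7 and 149.5 in *Pax5*+/-, 146.0 and 143.4 in *Pax5*R31Q/-, and 110.9 and 142.0 in *Pax5*-/-. *Pax5*-/- library 1 was the lowest, and library 2 lay within the range of *Pax5*+/+. The difference between *Pax5*-/- and *Pax5*+/+ was -0.24 (95% confidence interval from -0.56 to 0.08, adjusted p = 0.209), and it passed without *Pax5*-/- library 2 (-0.42, adjusted p = 0.0229). Leaving out the same library also moved the difference between *Pax5*R31Q/- and *Pax5*-/-, from 0.20 ± 0.14 (adjusted p = 0.273) to 0.38 (adjusted p = 0.0299). In these fits *Pax5*-/- library 1, whose median log2 ratio to the mean of all 8 libraries was -0.20, stood alone and was assumed to vary like the other genotypes, and 48.2% and 49.0% of all genes were called. *Stk11* overlaps *Cbarp* of the opposite strand.

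*Prkaa1* encodes the catalytic subunit α1 of AMPK. It was at 16.59 and 14.92 TPM in *Pax5*+/+, 16.31 and 19.32 in *Pax5*+/-, 18.20 and 17.69 in *Pax5*R31Q/-, and 14.24 and 22.99 in *Pax5*-/-. The 2 *Pax5*-/- libraries were the lowest and the highest of all 8. The difference between *Pax5*-/- and *Pax5*+/+ was 0.19 (95% confidence interval from -0.32 to 0.70, adjusted p = 0.521), with 0.52 without *Pax5*-/- library 1 (adjusted p = 0.045) and -0.13 without library 2. Between *Pax5*R31Q/- and *Pax5*+/+ it was 0.18, from -0.33 to 0.69 (adjusted p = 0.676).

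Counted over the 9 genes, 1 was higher and 1 lower in *Pax5*R31Q/- than in *Pax5*+/+ (limma, adjusted p under 0.05), where 1.62% of all tested genes were higher and 2.55% lower. These shares rested on single libraries: both directions together came to 4.17%, but to 0.739% and 0.701% without *Pax5*R31Q/- library 1 or 2, 1.36% without *Pax5*+/+ library 2, 2.38% and 2.45% without *Pax5*+/- library 1 or 2, and 6.49% and 6.7% without *Pax5*-/- library 1 or 2. Between *Pax5*-/- and *Pax5*+/+ 2 were higher and 2 lower, beside 16.2% and 19.7% of all genes, and without *Pax5*-/- library 2 the genes called lower rose from 2647 to 4232 (both directions together from 35.9% to 48.2%). Against *Pax5*-/-, 1 was higher and 2 were lower in *Pax5*R31Q/-, beside 19.9% and 14.7%, and both directions together fell from 34.6% to 14.9% and 16.1% of all genes without *Pax5*R31Q/- library 1 or 2. Without *Pax5*-/- library 2 they rose to 49.0%, with 4459 genes higher in place of 2677. The balance over all genes in the comparisons with *Pax5*-/- turned with the scaling: 2182 genes were higher and 2647 lower than in *Pax5*+/+ as deposited, against 2627 and 2498 with median-ratio scaling, and 2677 were higher and 1978 lower in *Pax5*R31Q/- than in *Pax5*-/-, against 2482 and 2619. None of the 9 passed between *Pax5*+/- and *Pax5*+/+ (0% of all genes were higher and 0.0223% lower) or between *Pax5*R31Q/- and *Pax5*+/- (0.268% and 0.35%). In those comparisons 3 and 2 of the 9 had an unadjusted p under 0.05, as did 814 and 1181 of all genes, and limma-voom on the recovered reads also called 0 of 9. The comparisons share their *Pax5*+/+ or *Pax5*R31Q/- libraries and are not independent of each other.

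With the study's cut-offs, over 3-fold with an adjusted p under 0.05 and a mean above 5 TPM in either genotype, *Slc2a6* was called between *Pax5*-/- and *Pax5*+/+ and between *Pax5*R31Q/- and *Pax5*-/-, beside 6.88% and 5.51% of all genes. The fold was taken here on the log2(TPM + 1) scale. The study used DESeq2 on counts and left out immunoglobulin genes, so these shares are not those of the study. None of the 9 was called between *Pax5*R31Q/- and *Pax5*+/+ (0.856% of all genes, 4 members at an unadjusted p under 0.05), between *Pax5*+/- and *Pax5*+/+ (0.0223%) or between *Pax5*R31Q/- and *Pax5*+/- (0.208%), and limma-voom also gave 0 in each. The median log2 difference of the 9 genes was 0.11 between *Pax5*R31Q/- and *Pax5*+/+ (0.044 over all genes), 0.15 between *Pax5*+/- and *Pax5*+/+ (0.024), 0.06 between *Pax5*-/- and *Pax5*+/+ (-0.109), -0.01 between *Pax5*R31Q/- and *Pax5*-/- (0.127) and -0.08 between *Pax5*R31Q/- and *Pax5*+/- (0.011).

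The median gene of *Pax5*-/- library 1 was shifted by -0.2048 on the log2 scale against the mean of all 8 libraries, whereas the shifts of the other libraries lay between 0.0004 and 0.0667. With the libraries scaled by their median ratio, the differences between *Pax5*-/- and *Pax5*+/+ were 3.57 for *Slc2a6*, 1.26 for *Slc2a3*, -0.74 for *Txnip* and -0.63 for *Cnr2*, and all 4 passed (adjusted p = 1.49e-05, 0.000197, 0.0139 and 0.0494). On the same scale *Insr* was at -0.30, *Stk11* at -0.14, *Nr3c1* at 0.17, *Prkaa1* at 0.28 and *Slc2a1* at 0.16, and none of these 5 passed.

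Pax5 binding in and near the 9 genes was taken from the 2 peak lists, within the gene and 20 kb on either side, with 1 library per genotype and therefore no test. The wild-type list held 35 such peaks and the R31Q list 25. Of the 35 wild-type peaks, 24 were met by an R31Q peak by at least 1 bp, where 37.5% of all 41983 wild-type peaks were met. Some of the met peaks lay at start sites of the neighbouring genes *Cacfd1*, *Fuca1*, *Atp5d* and *Midn*. The R31Q peaks of 3131 bp at *Nr3c1* and 2880 bp near *Stk11* each met more than 1 wild-type peak. With an overlap of at least 50% of both peaks 18 were met, and the share of all peaks under that rule was not counted. Of the 25 R31Q peaks, 21 were met by a wild-type peak, where 81.6% of all 18821 R31Q peaks were met. The 11 unmet wild-type peaks spanned 217 to 455 bp with a median of 280 bp, and the 24 met peaks 244 to 1334 bp with a median of 429 bp. The 4 unmet R31Q peaks spanned 278 to 764 bp with a median of 561.5 bp, and the 21 met R31Q peaks had a median of 585 bp. Over all wild-type peaks the medians were 316 bp for unmet and 468 bp for met peaks.

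A wild-type peak lay within 1 kb of an annotated start site in 6 of the 9 genes (*Insr*, *Slc2a1*, *Slc2a6*, *Nr3c1*, *Txnip* and *Stk11*), beside 68.2% of 12893 tested genes with an annotated position. An R31Q peak did so in 8 of 9, the same 6 with *Slc2a3* and *Prkaa1*, beside 73.2%. *Cnr2* had no start-site peak in either list. Its nearest one was intronic (chr4:135900105-135900407, 303 bp), 4916 bp from the start site, and was met in R31Q cells, and a peak at its 3′ end covered the start site of the neighbouring gene *Fuca1*.

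**Figure D3:**
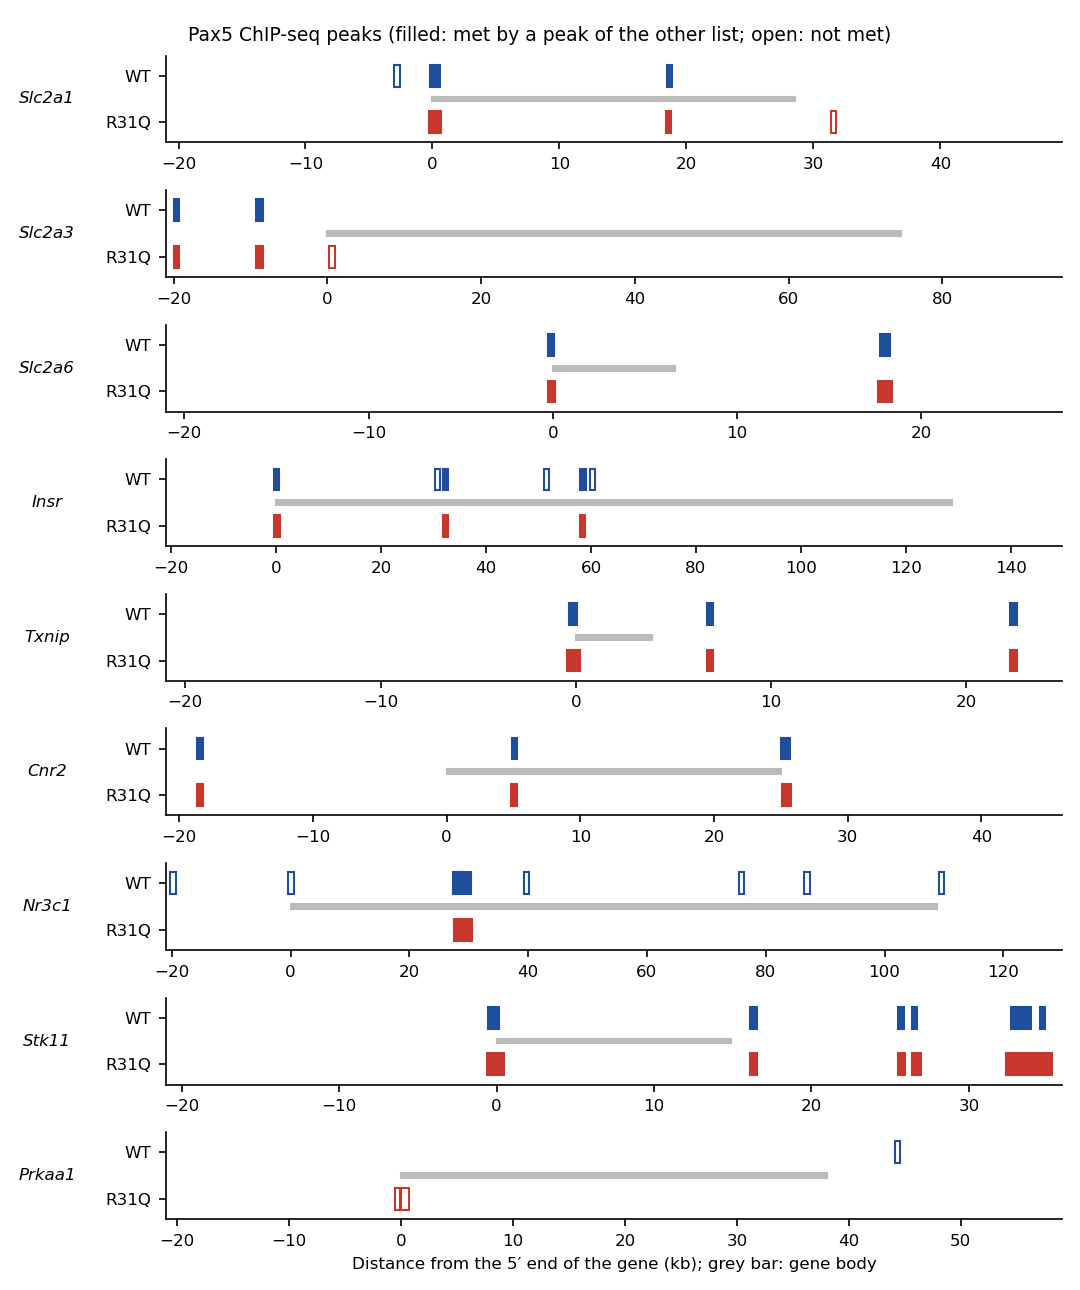
Pax5 ChIP-seq peaks around each of the 9 genes, with distance from the 5′ end of the gene in kb on the x axis, wild-type peaks above and R31Q peaks below the gene body in grey, filled where a peak of the other list met them. Short peaks are drawn at a fixed smallest width so that they can be seen. No R31Q peak met 3 of the wild-type peaks of *Insr* and 6 of those of *Nr3c1*, and the peaks at the 5′ end of *Prkaa1* were in the R31Q list alone.

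The 11 wild-type peaks without an R31Q partner lay at 4 of the 9 genes. *Nr3c1* (chr18:39410545-39519421, minus strand) had 9 wild-type peaks, of which 6 were unmet. The 3 met peaks formed a cluster of 1334, 675 and 604 bp over its internal start sites and were covered by a single R31Q peak of 3131 bp, and the peak at its most upstream start site (217 bp) was unmet. *Insr* had 6 wild-type peaks with the 3 unmet ones described above, and *Slc2a1* (chr4:119108745-119137330, plus strand) had 3, with 1 unmet peak of 253 bp lying 2672 bp before the gene. The single wild-type peak of *Prkaa1* was also unmet. The wild-type peaks of *Slc2a3* (2), *Slc2a6* (2), *Txnip* (3), *Cnr2* (3) and *Stk11* (6) were all met. For *Stk11* (chr10:80115767-80130679, plus strand) 5 of these lay in the flank, and 4 of the 5 were at the start sites of *Atp5d* and *Midn*.

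GCGTGAC was searched as these exact letters on both strands of the central 300 bp of each peak. It occurred in 1 of the 35 wild-type peaks of the members and in 0 of their 25 R31Q peaks, beside 3.78% of all wild-type and 5.98% of all R31Q peaks. Among all wild-type peaks met by an R31Q peak the share was 7.29%. The E-box CACGTG, a palindrome bound by Myc, occurred in 0 of the 35 wild-type peaks and in 1 of the 25 R31Q peaks, the peak at the neighbouring gene *Midn*, beside 4.47% and 8.35%. The promoter table held 7 sequences for 6 of the 9 genes (*Slc2a1*, *Slc2a6*, *Txnip*, *Cnr2*, *Stk11* and *Prkaa1*), and neither motif was in any of them, beside 2.09% and 7.15% of 32851 promoters of the same length. Only these exact letters were searched, and the paired, inexact E-boxes of the carbohydrate response element, which the glucose-responsive factors Mondo and ChREBP bind, were not.

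At 2 genes a start-site peak appeared in the R31Q list alone. In *Slc2a3* (chr6:122727809-122802363, minus strand) it spanned 727 bp (chr6:122801384-122802110) and lay 81 bp from a predicted start site and 58639 bp from the nearest curated one. In *Prkaa1* (chr15:5143861-5181899, plus strand) there were 2 such peaks, of 396 bp (chr15:5143371-5143766) and 764 bp (chr15:5143831-5144594), and the only wild-type peak within 20 kb was at the start of the neighbouring gene *Ttc33*. With limma neither transcript passed between *Pax5*R31Q/- and *Pax5*+/+ (adjusted p = 0.584 for *Slc2a3* and 0.676 for *Prkaa1*).

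The *Prkaa1* promoter, between and under its R31Q-only peaks, is shown for comparison with the other promoters. It is RefSeq sequence of GRCm38 (chr15:5143611-5143910, plus strand), with the 50 bases after the start in capitals.
Prkaa1 promoter: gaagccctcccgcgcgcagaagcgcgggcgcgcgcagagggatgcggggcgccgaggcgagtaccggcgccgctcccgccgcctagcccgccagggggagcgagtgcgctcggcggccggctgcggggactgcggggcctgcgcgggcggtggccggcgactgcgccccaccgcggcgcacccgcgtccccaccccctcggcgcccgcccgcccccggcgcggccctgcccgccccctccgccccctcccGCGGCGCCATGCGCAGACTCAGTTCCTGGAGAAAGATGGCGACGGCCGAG

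For each of the 5 members that passed in any comparison, the genes with the most similar profile were those with the smallest root mean square distance of log2(TPM + 1), centred on its mean over the 8 libraries. The likeness is a description over 8 libraries that share their genotypes. Nearest to *Slc2a6* were *Frmd4b* (distance 0.161), which encodes a FERM-domain scaffold protein, with mean TPM of 2.38 in *Pax5*+/+, 4.09 in *Pax5*+/-, 4.98 in *Pax5*R31Q/- and 37.7 in *Pax5*-/-, and *Dirc2* (0.18), which encodes a lysosomal membrane transporter, with 4.05, 4.33, 9.41 and 52.1 TPM. Nearest to *Slc2a3* were the adenylyl cyclase gene *Adcy3* (0.047), at 9.18 TPM in *Pax5*+/+ and 20.9 in *Pax5*-/-, and *Mob3b* (0.07), at 1.25 and 4.36 TPM. Nearest to *Txnip* were the autophagy protease gene *Atg4d* (0.08), at 27.6 and 16.5 TPM, and *B3gnt4* (0.092), at 1.41 and 0.374 TPM.

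Nearest to *Cnr2* were *Acot2* (0.098), a mitochondrial acyl-CoA thioesterase gene, and *S1pr4* (0.11), which encodes a lymphocyte receptor for sphingosine-1-phosphate. *Acot2* had mean TPM of 31.9 in *Pax5*+/+, 20.4 in *Pax5*+/-, 15.5 in *Pax5*R31Q/- and 19.2 in *Pax5*-/-, and *S1pr4* had 179.0, 136.0, 97.7 and 108.0 TPM, so that both shared with *Cnr2* the lowest mean in *Pax5*R31Q/-. Nearest to *Insr* were *Tet1* (0.064), which encodes an enzyme that oxidises 5-methylcytosine, at 7.84 TPM in *Pax5*+/+ and 5.42 in *Pax5*-/-, and *Zc3h12c* (0.069), at 2.22 and 1.44 TPM.

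The pathways around the 9 genes were described with 7 lists of 102 other genes, of which 84 were tested. The lists, too, were chosen with earlier results of these data known, and their counts describe and do not test. Between *Pax5*R31Q/- and *Pax5*+/+ 1 of the 84 was higher (1.19%) and 3 were lower (3.57%), beside 1.62% and 2.55% of all tested genes. Between *Pax5*-/- and *Pax5*+/+ 13 were higher (15.5%) and 23 lower (27.4%), beside 16.2% and 19.7% of all genes, and with the libraries scaled by their median ratio the counts were 18 and 19. With limma none of the 84 passed between *Pax5*+/- and *Pax5*+/+ (2 at an unadjusted p under 0.05, and 0 by limma-voom), and none between *Pax5*R31Q/- and *Pax5*+/- (9 at an unadjusted p under 0.05, and 2 by limma-voom).

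**Figure D4:**
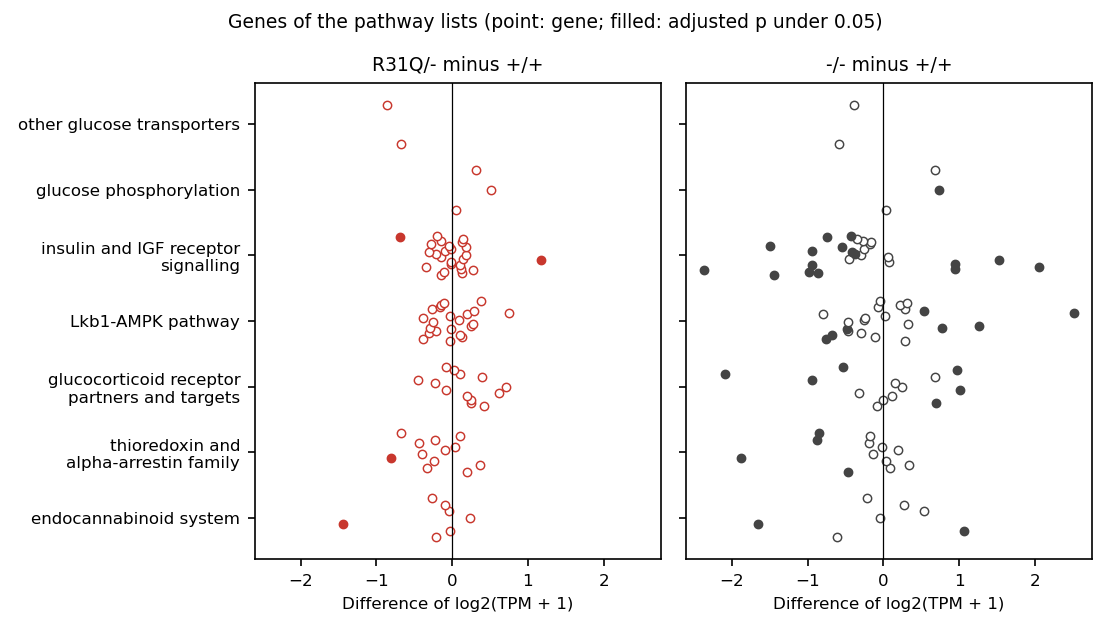
Difference of mean log2(TPM + 1) from *Pax5*+/+ for the tested genes of 7 pathway lists, in *Pax5*R31Q/- on the left and *Pax5*-/- on the right, with 1 point per gene and filled points for adjusted p under 0.05. On the left 4 of 84 points are filled and on the right 36.

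Glucose is trapped in the cell by hexokinases. Of 3 hexokinase genes tested, *Hk2* rose in *Pax5*-/- from 8.226 ± 1.256 to 14.34 ± 2.017 TPM (0.73 ± 0.17, adjusted p = 0.0119), and its *Pax5*R31Q/- mean was 12.19 ± 0.3342 TPM (0.52 ± 0.17, adjusted p = 0.148). *Hk1*, the most abundant, was at 81.33 ± 6.062 TPM in *Pax5*+/+ and 83.10 ± 8.214 in *Pax5*-/-.

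Among 25 tested genes of insulin and IGF receptor signalling, 4 were higher and 12 lower in *Pax5*-/- than in *Pax5*+/+, beside the 16.2% and 19.7% of all genes that apply to each list below, and with median-ratio scaling, quantile normalization or limma-voom 4 were higher and 9 lower. *Irs2*, an adaptor of the insulin receptor, fell from 36.58 ± 4.390 to 6.293 ± 0.1488 TPM (-2.36 ± 0.17, adjusted p = 6.58e-05). *Foxo1*, the transcription factor that insulin signalling inactivates, fell from 210.6 ± 12.99 to 75.61 ± 19.17 TPM (-1.49 ± 0.17, adjusted p = 0.000455). *Sh2b2*, an adaptor of the receptor, rose from 5.598 ± 1.811 to 25.75 ± 1.800 TPM (2.05 ± 0.22, adjusted p = 0.000389). In *Pax5*R31Q/- the values of *Irs2*, *Foxo1* and *Sh2b2* were 44.80, 204.9 and 4.120 TPM, and none of the 3 differed from *Pax5*+/+ by the test.

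*Pik3r1*, which encodes the p85α regulatory subunit of PI 3-kinase, was the 1 gene of all lists that rose in *Pax5*R31Q/-. It was at 54.01 and 45.11 TPM in *Pax5*+/+, 65.68 and 68.19 in *Pax5*+/-, 114.7 and 110.7 in *Pax5*R31Q/-, and 131.8 and 156.6 in *Pax5*-/-. The means of the 4 genotypes rose in the same order as for *Slc2a6*. With limma the neighbours *Pax5*+/- and *Pax5*+/+ (0.43 ± 0.13, adjusted p = 0.534) and *Pax5*R31Q/- and *Pax5*+/- (0.74 ± 0.13, adjusted p = 0.0697) did not pass. The difference from *Pax5*+/+ was 1.17 ± 0.13 in *Pax5*R31Q/- (adjusted p = 0.0042) and 1.52 ± 0.13 in *Pax5*-/- (adjusted p = 0.000143), and that between *Pax5*R31Q/- and *Pax5*-/- was -0.35 ± 0.13 (adjusted p = 0.0773). In the same list *Mtor* fell in *Pax5*R31Q/-.

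Among 22 tested genes of the Lkb1-AMPK pathway, 4 were higher and 3 lower in *Pax5*-/- than in *Pax5*+/+, and 6 and 3 with median-ratio scaling or quantile normalization. *Fnip2*, which encodes a folliculin-interacting protein that binds AMPK, rose from 0.6403 ± 0.1830 to 8.327 ± 0.9422 TPM (2.51 ± 0.20, adjusted p = 9.77e-05). Its *Pax5*R31Q/- libraries were at 1.821 and 1.667 TPM, above those of *Pax5*+/+ (0.75 ± 0.20, adjusted p = 0.0944). *Camkk1*, a kinase gene upstream of AMPK, rose from 1.265 ± 0.3510 to 4.428 ± 0.7454 TPM (1.26 ± 0.22, adjusted p = 0.00419), and *Prkag2*, which encodes a regulatory AMPK subunit, from 6.834 ± 1.881 to 12.54 ± 4.040 TPM (0.78 ± 0.25, adjusted p = 0.0464). *Fnip1* was at 3.873 and 9.014 TPM in the *Pax5*-/- libraries and did not pass against *Pax5*+/+ (-0.80 ± 0.31, adjusted p = 0.0812). None of the 22 passed between *Pax5*R31Q/- and *Pax5*+/+ with limma, and 4 had an unadjusted p under 0.05.

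Among 13 tested partners and targets of the glucocorticoid receptor, 3 were higher and 3 lower in *Pax5*-/-. *Sgk1*, a kinase gene induced by glucocorticoids, fell from 80.98 ± 13.60 to 18.26 ± 2.367 TPM (-2.09 ± 0.16, adjusted p = 7.97e-05), and *Dusp1*, a phosphatase gene induced by them, from 22.03 ± 0.6434 to 11.02 ± 0.3844 TPM (-0.94 ± 0.13, adjusted p = 0.00139). *Hsd11b1*, whose enzyme regenerates active glucocorticoid, rose from 2.763 ± 1.227 to 6.504 ± 1.925 TPM (1.01 ± 0.27, adjusted p = 0.0227), and *Zbtb16* from 0.08002 ± 0.04787 to 1.137 ± 0.4759 TPM (0.97 ± 0.20, adjusted p = 0.00821). In *Pax5*R31Q/-, where *Nr3c1* itself was 1.54 times the *Pax5*+/+ mean, *Sgk1* was at 87.24 ± 9.608 TPM and *Dusp1* at 15.85 ± 0.8016 TPM, and none of the 13 passed with limma, while 1 had an unadjusted p under 0.05.

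The list of the thioredoxin system and the α-arrestin family, to which *Txnip* belongs, also held the transcription factor genes *Mlx* and *Mlxip*. Among its 12 tested genes 0 were higher and 4 lower in *Pax5*-/- by limma, with 4 at an unadjusted p under 0.05 in either direction. With median-ratio scaling, quantile normalization or limma-voom 1 was higher and 3 lower. *Txnrd3*, a thioredoxin reductase gene, was at 39.98 and 46.84 TPM in *Pax5*+/+, 43.56 and 42.87 in *Pax5*+/-, 24.38 and 24.60 in *Pax5*R31Q/-, and 11.53 and 10.56 in *Pax5*-/-. It fell in *Pax5*R31Q/- (-0.80 ± 0.13, adjusted p = 0.0174) and in *Pax5*-/- (-1.88 ± 0.13, adjusted p = 5.35e-05), and these also differed from each other (1.08 ± 0.13, adjusted p = 0.000855). *Mlxip*, which encodes MondoA, the glucose-sensing activator of *Txnip*, was at 112.7 ± 4.163 TPM in *Pax5*+/+, 71.62 ± 20.60 in *Pax5*R31Q/- (-0.68 ± 0.18, adjusted p = 0.096) and 61.91 ± 3.783 in *Pax5*-/- (-0.85 ± 0.18, adjusted p = 0.00926). *Arrdc5* fell in *Pax5*-/- from 4.024 ± 0.7824 to 1.735 ± 0.08367 TPM (adjusted p = 0.047) and *Txn1*, thioredoxin itself, from 673.7 ± 21.94 to 486.5 ± 59.85 TPM (adjusted p = 0.0229).

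Among 7 tested genes of the endocannabinoid system around *Cnr2*, 1 was higher and 1 lower in *Pax5*-/-. With median-ratio scaling or quantile normalization 3 were higher and 1 lower, and with limma-voom 3 and 2. *Mgll* encodes monoacylglycerol lipase, which breaks down the CB2 ligand 2-arachidonoylglycerol. It was at 10.78 and 11.91 TPM in *Pax5*+/+, 8.053 and 7.796 in *Pax5*+/-, 4.343 and 2.888 in *Pax5*R31Q/-, and 3.468 and 2.477 in *Pax5*-/-. It fell in *Pax5*R31Q/- (-1.44 ± 0.21, adjusted p = 0.0119) and in *Pax5*-/- (-1.65 ± 0.21, adjusted p = 0.000928), whose libraries overlapped. *Faah*, which encodes the hydrolase of anandamide, rose in *Pax5*-/- from 0.2547 ± 0.07530 to 1.612 ± 0.01595 TPM (1.06 ± 0.17, adjusted p = 0.00243), and *Abhd12*, another lipase gene, was at 46.42 ± 3.953 and 56.24 ± 1.560 TPM (0.27 ± 0.12, adjusted p = 0.102).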

How the data were processed

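The deposited RNA-seq files hold TPM, which the authors computed per gene from uniquely mapping reads: rRNA reads were removed with Bowtie2, the rest aligned with STAR to GRCm38 and counted on RefSeq genes. Per the file headers the ChIP-seq files hold peak positions with a score of 0 in every line, and the authors called these peaks with MACS against input, down-sampling reads where necessary. Replicate numbers follow accession order.

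From these, log2(TPM + 1) was fitted with limma 3.58.1 (R 4.3.3, empirical Bayes with trend, genotype alone, all 8 libraries) for the 13436 genes of at least 1 TPM in any library, with Benjamini-Hochberg adjustment. Fold changes on that scale understate those of low genes. For all 18206 genes above 0 in at least 2 libraries, 100% of the TPM values gave whole reads (tolerance 0.0001 reads), and limma-voom on these reads was an alternative added after the data were seen. Other alternatives were 2 pseudocounts, 2 filters, 2 scalings, no trend, pairs of genotypes and each library left out. Immunoglobulin genes were kept in the counts over all genes. The fit was also run on simulated reads with equal numbers of rises and falls, a single spread for all genes and no shifted library. That run therefore did not cover the shift of *Pax5*-/- library 1.

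Peaks were placed with the RefSeq annotation of GRCm38.p6, and promoters came from RefSeq (python 3.11.15, pysam 0.24.0). The members and lists were chosen with earlier results of these data known. Named were all members, Pax5, the 2 nearest profiles per called member and up to 4 genes per list. The genes of the lists had passed in any comparison and were taken by the size of their *Pax5*-/- difference. Some of them, such as *Fnip1* and *Abhd12*, therefore did not pass between *Pax5*-/- and *Pax5*+/+. *Hk1*, *Slc2a8*, *Slc2a9*, *Mtor* and the markers were named after their values were seen.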

Additional observations from a re-analysis of the deposited data

How the results depend on the processing

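The calls of *Slc2a6*, *Slc2a3* and *Txnip* between *Pax5*-/- and *Pax5*+/+, and of *Slc2a6* and *Slc2a3* between *Pax5*R31Q/- and *Pax5*-/-, passed in each of 17 alternative settings. Between *Pax5*R31Q/- and *Pax5*+/+ the 2 calls among the 9 genes became 1 with a filter of 5 TPM, under which *Cnr2* was not tested, 1 with a pseudocount of 5, 0 without a filter and 0 with only those 2 genotypes fitted, and 0 to 2 when single libraries were left out. Between *Pax5*R31Q/- and *Pax5*-/- the 3 calls became 2 to 5 with single libraries left out. In each such fit the remaining library of the genotype was assumed to vary like the other genotypes. With a threshold of 2-fold in place of 3-fold the members called were 1 between *Pax5*R31Q/- and *Pax5*+/+, 2 between *Pax5*-/- and *Pax5*+/+, and 2 between *Pax5*R31Q/- and *Pax5*-/-. The R31Q peaks near the members rose to 46 within 50 kb, and the wild-type peaks met by one were 15 within 5 kb and 40 within 50 kb, which follows from the window. With an overlap of at least 50% of both peaks 18 were met, and the start-site counts were the same at 0.2 and 2.5 kb. The score of 0 allowed no stricter threshold on peaks.

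Differences that turned sign had an adjusted p of at least 0.132, and the cause was not tested. *Insr* between *Pax5*+/- and *Pax5*+/+ was -0.02 with limma-voom and -0.01 with each of both other scalings, and *Prkaa1* between *Pax5*R31Q/- and *Pax5*+/- was -0.02 with quantile normalization. With single libraries left out, the log2 differences ranged, between *Pax5*R31Q/- and *Pax5*+/+, from -0.14 to 0.07 for *Slc2a1* and from -0.11 to 0.05 for *Stk11*. Between *Pax5*+/- and *Pax5*+/+ they ranged from -0.12 to 0.14 for *Insr* and from -0.04 to 0.12 for *Stk11*, and between *Pax5*-/- and *Pax5*+/+ from -0.13 to 0.29 for *Nr3c1* and from -0.13 to 0.52 for *Prkaa1*. Between *Pax5*R31Q/- and *Pax5*-/- they ranged from -0.20 to 0.0 for *Slc2a1* and from -0.34 to 0.31 for *Prkaa1*, and between *Pax5*R31Q/- and *Pax5*+/- from -0.03 to 0.24 for *Insr*, from -0.45 to 0.04 for *Txnip* and from -0.10 to 0.13 for *Prkaa1*. Over the member differences under these alternatives, 34 lost a call, 5 gained one, 19 turned sign and 702 did none of these. No paired analysis was possible because the labels give no replicate numbers.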
